A study of Homo sapiens with 3 samples.

Results

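A list of 10 genes was followed in SK-Hep-1 cells because their products define blood vessel endothelium: PECAM1, VWF, CDH5, KDR, TEK, TIE1, FLT1, ENG, ROBO4 and ERG. They were picked by symbol, and 9 of them were read from a table of 22464 genes. KDR, a receptor for vascular endothelial growth factor (VEGF), was not analysed here. Of the 9, ENG and ROBO4 reached 1 FPKM in every library, and 7 lay below 1 FPKM in every library. FPKM is the number of sequenced fragments of a gene scaled to the length of the gene and to the total of its library.

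The libraries came from SK-Hep-1, an established human line from a liver adenocarcinoma that is often described as having endothelial traits. The sh1089-1 and sh1089-2 lines carried different lentiviral hairpins against the long noncoding RNA LINC01089, and the shNC line carried a negative control hairpin. All 3 lines were stably infected, so lentiviral integration and a hairpin were common to every group. Each group was 1 library, so no difference has a replicate check and no p-value is given, and each line's other properties cannot be told apart from its hairpin. LINC01089 was not analysed here, so the knockdown itself was not checked. The FPKM of the sh1089-1, sh1089-2 and shNC libraries were scaled to totals of 9528312, 8359832 and 10698480 reads, as worked out from the steps between low values. These are the totals behind the FPKM and may differ from the number of reads sequenced.

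Endothelial cells line the vessels, and their identity rests on a small set of receptors, junction proteins and transcription factors. VEGF ligands act through the tyrosine kinase receptors FLT1 and KDR, and angiopoietins through TEK, with TIE1 as its partner. ENG (endoglin) is a co-receptor for ligands of the TGF-beta and BMP families, ROBO4 a guidance receptor that stabilises vessels, CDH5 (VE-cadherin) and PECAM1 (CD31) are proteins of the cell contact, VWF is the clotting protein stored in endothelial granules, and ERG is an ETS-family factor that maintains the lineage. In the liver, sinusoidal endothelium adds scavenger receptors and lectins to this set.

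ENG was the only one of the 9 genes at a high level. It had 48.8 FPKM in sh1089-1, 42.8 FPKM in sh1089-2 and 37.5 FPKM in shNC, on 1828, 1408 and 1578 reads. That placed it above 95.1%, 94.5% and 93.8% of the 16858 protein-coding genes in the same libraries. ENG lies on chromosome 9 from 127815012 to 127854756, minus strand (GENCODE 29, GRCh38), and an annotated antisense gene overlaps it. Whether the authors' counting used the strand is not given in the sources used here, so reads of the pair cannot be told apart.

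ROBO4 came next, far below ENG. It had 1.82 FPKM in sh1089-1, 1.55 FPKM in sh1089-2 and 1.30 FPKM in shNC, on 122, 91 and 98 reads. ENG exceeded it 26.8-fold, 27.7-fold and 28.8-fold in the 3 libraries, on the FPKM scale. ROBO4 (chromosome 11, 124883691 to 124898500, minus strand) is overlapped by 2 annotated antisense genes. In each library it stood below the middle of the protein-coding genes, with 47.0%, 44.6% and 41.2% of them at a lower level.

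TIE1, a receptor tyrosine kinase that pairs with TEK (chromosome 1, 43300993 to 43323108, plus strand), had 0.110 FPKM in sh1089-1, 0.250 FPKM in sh1089-2 and 0.293 FPKM in shNC, on 7, 14 and 21 reads. It was the highest of the genes below 1 FPKM, and the nearest to that threshold from below, as ROBO4 was from above. TEK, the angiopoietin receptor, had 0.0218 FPKM in sh1089-1, 0 FPKM in sh1089-2 and 0.0584 FPKM in shNC, which are 1, 0 and 3 reads. Both kinases of this pair had fewer reads in the hairpin libraries than in shNC, the deepest library.

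The adhesion and granule genes were at or near 0. VWF (chromosome 12, 5948874 to 6124770) had 0, 2 and 4 reads in sh1089-1, sh1089-2 and shNC, or 0, 0.0230 and 0.0360 FPKM. CDH5 (chromosome 16, 66366622 to 66404786) had 1 read in each library, at 0.0173, 0.0197 and 0.0154 FPKM. PECAM1 (chromosome 17, 64319415 to 64413776) had 0 reads in both hairpin libraries and 1 read in shNC, at 0.0121 FPKM. A count of 0 allows up to 3 reads, which for PECAM1 is 0.0407 FPKM in sh1089-1 and 0.0464 FPKM in sh1089-2. In a bulk library, fewer cells with a transcript and less of it per cell cannot be told apart, so these reads say nothing about how they were spread over cells.

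FLT1, a VEGF receptor (chromosome 13, 28300344 to 28495145), had 0 reads in all 3 libraries, which allows up to 0.0251 FPKM in sh1089-1, 0.0286 FPKM in sh1089-2 and 0.0223 FPKM in shNC. ERG (chromosome 21, 38380027 to 38661780) had 1 read in sh1089-1, or 0.0138 FPKM, and 0 reads in sh1089-2 and in shNC. The order of levels was therefore ENG, ROBO4 and TIE1, each apart from the next in every library. The order of the other 6 genes, none above 4 reads in any library, was not detectable at this depth.

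**Figure D1:**
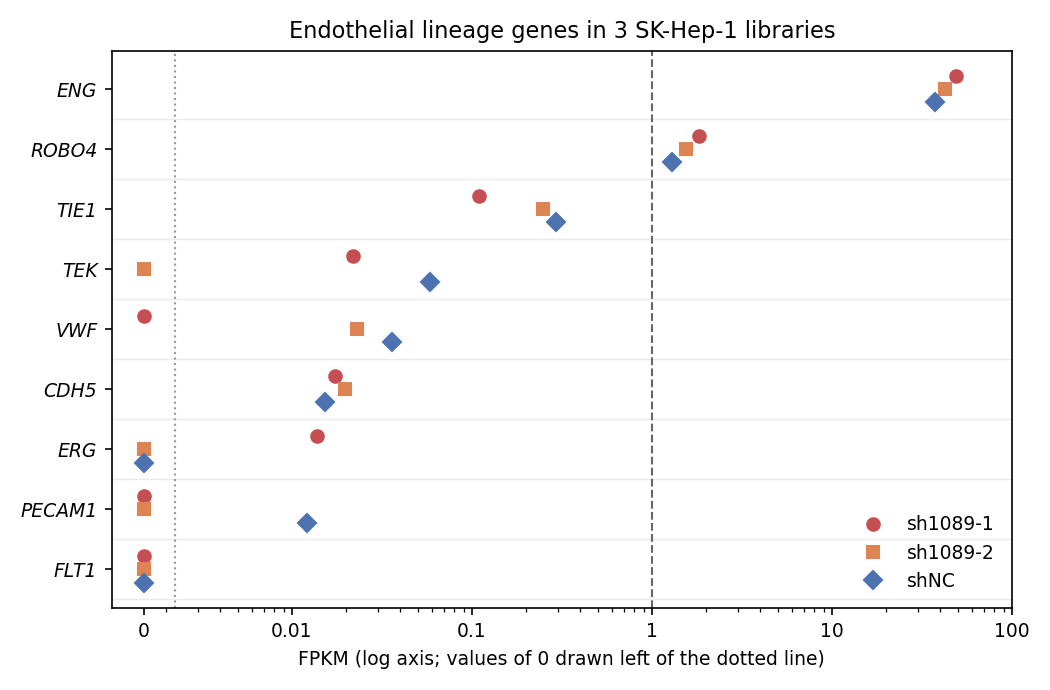
FPKM of the 9 analysed genes on a log axis, with 1 point per library (sh1089-1, sh1089-2, shNC) and genes ordered by their mean. Values of 0 stand left of the dotted line and the dashed line marks 1 FPKM. ENG lies between 37.5 and 48.8 FPKM, ROBO4 just above 1 FPKM, and the other 7 genes below it.

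Set against the whole table, 2 of 9 genes reached 1 FPKM in all 3 libraries, where 58.2% of protein-coding genes and 46.3% of all listed genes did. The median over the 9 genes was 0.0173 FPKM in sh1089-1, 0.0197 FPKM in sh1089-2 and 0.0360 FPKM in shNC, beside medians of 0.924, 0.985 and 1.06 FPKM over all listed genes. ENG made up 96.1%, 95.9% and 95.6% of the summed FPKM of the 9 genes. The 7 genes below 1 FPKM had 10, 17 and 30 reads between them. Most of the set was therefore at or near 0 in these libraries, which goes against the endothelial label, and the genes are called endothelial here only by their list.

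Promoter sequence from RefSeq (GRCh38.p14) was held for 6 of the 9 genes, and 3 stretches before the annotated start are shown to set the highest gene beside FLT1, at 0 reads, and TIE1, at few. Bases that GENCODE 29 places in an exon were left out, which left none of the ROBO4 window. Capitals mark the ETS core GGAA or its reverse complement TTCC, the letters that factors of ERG's family bind. The stretches are chr9:127854757-127854908 (minus strand), chr13:28495146-28495378 (minus strand) and chr1:43300732-43300981 (plus strand).
ENG: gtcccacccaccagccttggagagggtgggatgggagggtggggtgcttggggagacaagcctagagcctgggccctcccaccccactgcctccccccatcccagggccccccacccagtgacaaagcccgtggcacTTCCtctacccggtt
FLT1: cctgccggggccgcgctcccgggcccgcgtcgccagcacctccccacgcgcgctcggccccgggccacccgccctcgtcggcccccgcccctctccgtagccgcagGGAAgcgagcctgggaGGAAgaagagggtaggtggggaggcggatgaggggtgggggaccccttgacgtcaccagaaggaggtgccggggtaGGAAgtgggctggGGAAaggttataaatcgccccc
TIE1: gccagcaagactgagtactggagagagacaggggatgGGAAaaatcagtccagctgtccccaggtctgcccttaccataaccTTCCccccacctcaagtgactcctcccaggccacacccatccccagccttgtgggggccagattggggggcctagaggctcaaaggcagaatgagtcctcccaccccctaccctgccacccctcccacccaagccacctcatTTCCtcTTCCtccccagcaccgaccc
The ETS core occurs 1 time in the ENG stretch of 152 bases, 4 times in the FLT1 stretch of 233 bases and 4 times in the TIE1 stretch of 250 bases, on both strands. In full windows of 250 bases before the start it occurred 3, 4 and 4 times, and 3 times for ROBO4. It is a common string: 92.7% of the 35116 such windows in the RefSeq table hold it, with a median of 3. The longer ETS string CAGGAAG, held by 10.5% of windows, occurred in the ROBO4 window and in none of the other 3, and CCGGAAG, held by 8.52%, in none of the 4. CAGGAAG also occurred before ERG, at chr21:38498505-38498754 and the overlapping chr21:38498478-38498727, and in no TEK window. ERG had 1 read in all. The longer strings contain the core and were counted on both strands. FLT1 had 25 CpG dinucleotides in its window, against 7 for ENG, 10 for ROBO4, 1 for TIE1 and a median of 11 over all windows. The ERG window at chr21:38660668-38660917 had 44 and the other ERG windows 2 or 3, and the TEK windows had 5 and 1. A string match is a description of the letters and no evidence of binding, and a link between these counts and the levels was not tested.

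The next question was whether the LINC01089 hairpins shifted the endothelial genes. A gene was called where log2(FPKM + 1) differed by at least 1.5-fold, among the 11198 genes with a mean of at least 1 FPKM, which left ENG and ROBO4 of the 9. At low FPKM a plain ratio past 1.5-fold can therefore go uncalled. Neither was called in sh1089-1 against shNC, nor in sh1089-2 against shNC, nor in sh1089-2 against sh1089-1. Over all 11198 genes, 11.1%, 10.5% and 4.78% were called in those comparisons, so 0 of 2 is close to the background and is not a result about these genes. Both hairpin comparisons share the shNC library.

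ENG was somewhat above shNC with either hairpin, on the FPKM values given above. The ratio was 1.30 in sh1089-1 (95% counting interval 1.22 to 1.39) and 1.14 in sh1089-2 (1.06 to 1.23). On the log2(FPKM + 1) scale the differences were 0.37 and 0.19. Over all 11198 genes the median differences were −0.03 and −0.04. The intervals cover counting error only, from reads without molecular identifiers, and contain no spread between cultures. ROBO4 had ratios of 1.40 (1.06 to 1.84) and 1.19 (0.883 to 1.60), so in sh1089-2 the interval included 1.

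TIE1, below the filter, lay under shNC: in sh1089-1 its ratio was 0.374 (0.134 to 0.914), and in sh1089-2 it was 0.853 (0.401 to 1.76). It thus went the other way from ENG and ROBO4, on few reads and with an interval in sh1089-2 that included 1. VWF had a ratio of 0 in sh1089-1 (0 to 1.70) and of 0.640 in sh1089-2 (0.0579 to 4.46), and both intervals included 1. No ratio is given for the remaining 5 genes, whose reads did not exceed 3 in any library. Between the hairpin lines, ENG in sh1089-2 was 0.878 of its level in sh1089-1 (0.818 to 0.942) and ROBO4 0.850 (0.641 to 1.12).

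For the levels of ENG and ROBO4, the protein-coding genes closest to them over the 3 libraries were found by the Euclidean distance of log2(FPKM + 1). PAFAH1B3 lay closest to ENG at a distance of 0.0234, with 49.0, 42.4 and 37.0 FPKM in sh1089-1, sh1089-2 and shNC, followed by AKR1B1 and MRPL24. MRE11, HSD17B6 and BORCS8 lay closest to ROBO4, and KIF26B and PCDHGA3 were among the 3 closest to TIE1. With 3 libraries many genes fall near any level, and the likeness describes the values only.

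VEGF ligands were in part expressed where FLT1 had 0 reads and FLT4 was low, and KDR was not analysed here. VEGFB, a FLT1 ligand, had 28.2 FPKM in sh1089-1, 24.3 FPKM in sh1089-2 and 23.7 FPKM in shNC. VEGFA, the ligand of FLT1 and KDR, had 4.06, 3.29 and 3.89 FPKM in the same libraries, and PGF, which binds FLT1, had 0.814, 1.24 and 1.39 FPKM. None of these 3 ligands was called in either hairpin. VEGFC, which acts on FLT4 and KDR, had 7.87 FPKM in sh1089-1, 6.82 FPKM in sh1089-2 and 11.0 FPKM in shNC. It was called lower in sh1089-2 (ratio 0.619, 0.506 to 0.755) and not in sh1089-1 (0.715, 0.594 to 0.857), and the difference between the hairpins was not tested. FLT4 itself had 0.178, 0.149 and 0.0950 FPKM, and VEGFD was at 0 in all 3 libraries.

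The VEGF co-receptors were present. NRP1 had 6.93 FPKM in sh1089-1, 9.09 FPKM in sh1089-2 and 8.29 FPKM in shNC, and NRP2 had 1.03, 1.72 and 1.33 FPKM. Of the TEK ligands, ANGPT1, the activating one, had 0.736 FPKM in sh1089-1, 0.822 FPKM in sh1089-2 and 1.38 FPKM in shNC, on 50, 49 and 105 reads. By plain ratio it stood at 0.535 of shNC (0.374 to 0.756) and 0.597 (0.416 to 0.846), but it lay under the filter of 1 FPKM on the mean. ANGPT2 had 1, 2 and 2 reads, ANGPT4 8, 7 and 7 reads, and SVEP1, a ligand of TIE1, 20, 15 and 13 reads. PTPRB, the phosphatase that restrains TEK, had 0.115, 0.239 and 0.231 FPKM.

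The receptors that ENG assists were unevenly expressed. TGFBR2 had 14.9 FPKM in sh1089-1, 14.6 FPKM in sh1089-2 and 16.9 FPKM in shNC. TGFBR1, the type I TGF-beta receptor, had 2.98, 2.91 and 5.82 FPKM, and was called lower with both hairpins, at 0.513 (0.430 to 0.609) and 0.50 (0.415 to 0.599) of shNC. BMPR2, a type II receptor for BMP ligands, had 2.42, 3.24 and 5.11 FPKM, and was called lower in sh1089-1 (0.473, 0.409 to 0.546) and not in sh1089-2 (0.634, 0.553 to 0.726). In sh1089-2 its plain ratio was past 1.5-fold, but its log2(FPKM + 1) difference of −0.53 was short of the cut of 0.585 in size. ACVRL1, the endothelial type I receptor that pairs with ENG, had 0.167, 0.356 and 0.519 FPKM, on 8, 15 and 28 reads. So ENG lay above shNC while TGFBR1 and BMPR2 lay below it in both hairpin libraries.

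TGFB1 was the most abundant ligand gene here, with 84.0 FPKM in sh1089-1, 91.8 FPKM in sh1089-2 and 76.6 FPKM in shNC. TGFB3 had 0.128, 0.243 and 0.114 FPKM. BMP10, a ligand of the ENG and ACVRL1 pair, was listed at 0 in sh1089-1 and in shNC and at 0.0198 FPKM in sh1089-2. Of the guidance partners, UNC5B, which binds ROBO4, had 5, 3 and 10 reads. The related receptor ROBO1 had 2.25, 2.61 and 3.57 FPKM, and the ligands SLIT2 and SLIT3 had 0.607, 0.616 and 0.811 FPKM and 2.85, 3.99 and 3.42 FPKM.

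**Figure D2:**
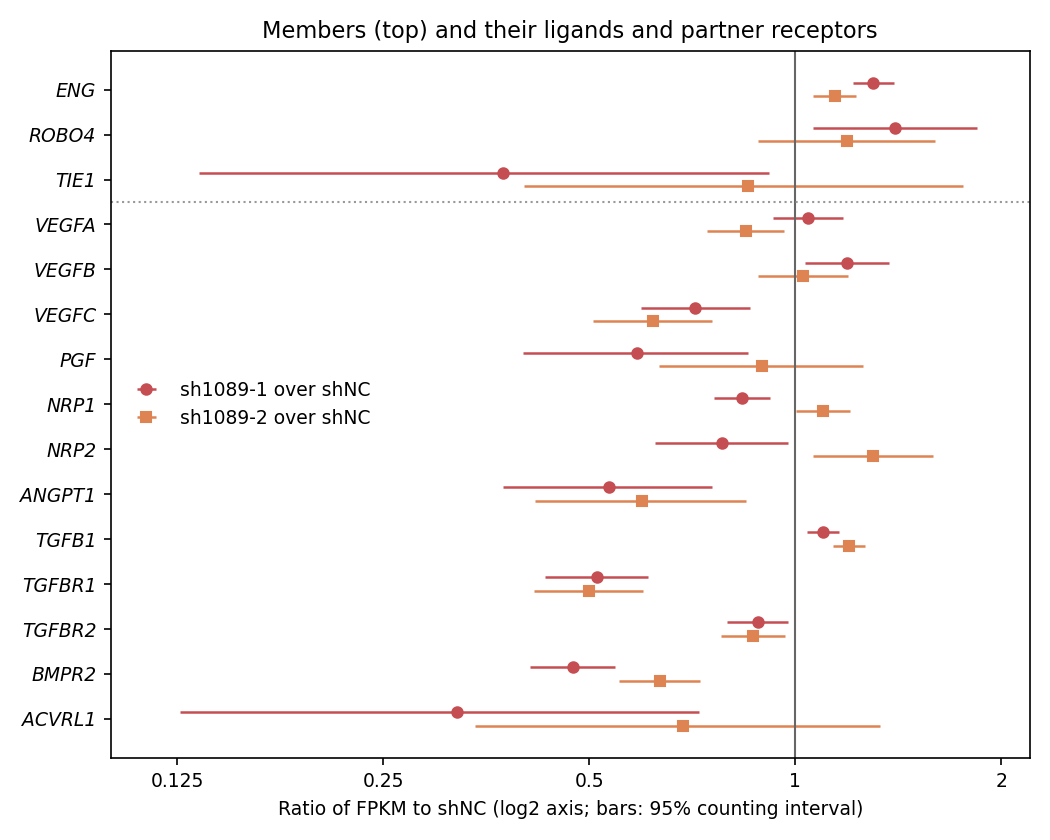
Ratio of FPKM to shNC on a log2 axis for ENG, ROBO4 and TIE1 (above the dotted line) and for their ligands and partner receptors, in sh1089-1 and sh1089-2; bars are 95% counting intervals. ENG lies to the right of 1 with both hairpins, at 1.30 and 1.14, and TGFBR1 to the left, at 0.513 and 0.50.

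Of the whole list of ligands and partner receptors, 24 of 25 genes were analysed, 11 reached 1 FPKM in all 3 libraries and 12 passed the filter. None was called higher with either hairpin, and 2 were called lower with each: TGFBR1 and BMPR2 in sh1089-1, TGFBR1 and VEGFC in sh1089-2. The median difference of the 12 genes was −0.21 in sh1089-1 and −0.14 in sh1089-2. Over all genes, 5.83% were called lower in sh1089-1 and 5.63% in sh1089-2.

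Transcription factors of the lineage were mixed. NR2F2, a factor of venous identity, had 28.9 FPKM in sh1089-1, 29.8 FPKM in sh1089-2 and 26.1 FPKM in shNC. ETS1, an ETS factor also active in other cell types, had 23.4, 26.3 and 30.7 FPKM. FLI1, the closest relative of ERG, had 1.92, 1.86 and 1.42 FPKM, on 147, 125 and 122 reads, where ERG had 1 read in all. LYL1 was at 0 in all 3 libraries, while KLF2 had 18.7, 20.5 and 20.7 FPKM. GATA2 had 5.81, 5.12 and 5.91 FPKM and SOX18 had 2.93, 3.34 and 2.46 FPKM. LYL1, KLF2, GATA2 and SOX18 were picked after their values were seen. Of 24 factors analysed, 14 reached 1 FPKM in all 3 libraries and 10 lay below it in all 3. EPAS1, which encodes HIF-2α and is abundant in endothelium, was the only one of the 14 factors that passed the filter to be called, at 10.6 FPKM in sh1089-1 and 13.7 FPKM in sh1089-2, against 52.3 FPKM in shNC. Its ratios to shNC were 0.202 (0.186 to 0.218) in sh1089-1 and 0.262 (0.243 to 0.282) in sh1089-2. Over all genes 11.1% were called in sh1089-1, 10.5% in sh1089-2, and 2.79% were called lower with both hairpins. A count of 1 of 14 is close to the share in either single comparison, which says nothing about the size of the EPAS1 difference. The median differences of the 14 were −0.08 and 0.10.

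Junction and surface genes ranged widely: of 21 analysed, 12 reached 1 FPKM in all 3 libraries and 9 lay below it in all 3. CAVIN1 and CAV1, which form caveolae, had 545, 520 and 421 FPKM and 265, 278 and 248 FPKM in sh1089-1, sh1089-2 and shNC. CTNNA1, a catenin that links cadherins to actin, had 45.6, 57.7 and 48.9 FPKM. CLDN5, the endothelial claudin, had 0, 0 and 1 reads and VCAM1 had 0 reads throughout. CD34 had 12, 17 and 9 reads. Other surface genes lay well above 1 FPKM. PODXL had 13.7, 16.6 and 16.2 FPKM in sh1089-1, sh1089-2 and shNC, and ICAM1 had 14.76, 17.14 and 14.99 FPKM. S1PR1 had 13.7, 17.9 and 11.9 FPKM and MCAM 7.381, 8.703 and 6.209 FPKM in the same order. CDH2 (N-cadherin) was called higher with both hairpins, at 11.3 FPKM in sh1089-1 and 12.3 FPKM in sh1089-2, against 6.01 FPKM in shNC (ratios 1.89, 1.63 to 2.19, and 2.05, 1.77 to 2.38). CDH5, the endothelial cadherin, had 1 read in each of the same libraries. JUP, plakoglobin, had 12.3, 20.2 and 12.0 FPKM and was called higher in sh1089-2 and not in sh1089-1. Of the 12 genes that passed the filter, 1 was called higher in sh1089-1 and 2 in sh1089-2, and 0 were called lower. Over all genes 5.27% and 4.89% were called higher, and 3.08% with both hairpins. CLDN5, VCAM1, CD34, PODXL, ICAM1, S1PR1, MCAM and JUP were picked after their values were seen.

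Among the 12 secreted and vasoactive genes that passed the filter, PLAT and APLN were called higher with both hairpins, where 3.08% of all genes were. JAG2 was called higher in sh1089-2 alone, at 2.86 FPKM, against 1.42 FPKM in shNC. None of the 12 was called lower with either hairpin. PLAT, tissue plasminogen activator, had 31.2 FPKM in sh1089-1, 66.6 FPKM in sh1089-2 and 13.4 FPKM in shNC. APLN, which encodes the vessel peptide apelin, had 2.34 and 2.00 FPKM in the hairpin libraries, against 0.406 FPKM in shNC, on 72, 54 and 14 reads. Its ratios were 5.77 (3.23 to 11.1) and 4.94 (2.70 to 9.62). PROCR, the endothelial protein C receptor, had 82.9 FPKM in sh1089-1, 92.3 FPKM in sh1089-2 and 96.2 FPKM in shNC. NOS3, endothelial nitric oxide synthase, lay below 1 FPKM in every library, at 0.637, 0.686 and 0.946 FPKM. EGFL7 had 23.6, 23.7 and 26.5 FPKM, EDN1 11.4, 8.46 and 7.99 FPKM, and THBD 4.62, 4.66 and 4.55 FPKM. NOS3, EGFL7, EDN1 and THBD were named after their values were seen. Of 20 genes of this list analysed, 11 reached 1 FPKM in all 3 libraries and 8 lay below it in all 3.

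Over the 5 lists of ligands, factors, junction, secreted and sinusoidal genes, 96 of 112 genes were analysed and 48 reached 1 FPKM in all 3 libraries. Of the 50 that passed the filter, 3 were called higher and 3 lower in sh1089-1, with a median difference of −0.12. In sh1089-2, 5 were called higher and 3 lower, with a median of 0.07. That split was 8 to 3 after rescaling to TPM and 6 to 2 after scaling by the median of ratios, where all genes split 888 to 695 and 627 to 537, against 548 to 630 as deposited. Over all genes 5.27% were called higher and 5.83% lower in sh1089-1, and 4.89% and 5.63% in sh1089-2. The 5 genes called in the same direction with both hairpins were CDH2, PLAT and APLN, which were higher, and TGFBR1 and EPAS1, which were lower, where 3.08% of all genes were higher and 2.79% lower with both.

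Markers of particular endothelial beds were low. Of 7 analysed genes of liver sinusoidal endothelium none reached 1 FPKM in any library, and 3 were at 0 in all of them. The highest was STAB1, a scavenger receptor, with 0.971 FPKM in sh1089-1, 0.712 FPKM in sh1089-2 and 0.362 FPKM in shNC, on 98, 63 and 41 reads. Its relative STAB2 had 9, 4 and 13 reads and CLEC4M, a lectin, 0, 6 and 2 reads. The 4 analysed lymphatic genes summed to 0.346, 0.261 and 0.210 FPKM, and PDPN was at 0 throughout. FLT4, RELN and PROX1 led that list, and PROX1, the lymphatic master factor, had 1, 0 and 4 reads.

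The libraries were also checked against markers of other cell types, because the labels name liver as the tissue. Of 21 listed hepatocyte genes 15 were analysed, and ALB, APOB, APOC3, TF, FGA and CYP3A4 were not analysed here. The analysed ones were mostly low: 13 of 15 lay below 1 FPKM in every library, 3 of them at 0. The 15 genes summed to 10.1, 12.6 and 7.81 FPKM in sh1089-1, sh1089-2 and shNC. SERPINA1 led them with 5.91, 8.0 and 4.69 FPKM, followed by FOXA2 with 2.10, 3.03 and 1.22 FPKM and CPS1 with 0.399, 0.488 and 0.425 FPKM. APOA1 and TTR were at 0 in all 3 libraries. SERPINA1 and FOXA2, the 2 that passed the filter, were called higher in sh1089-2 and not in sh1089-1. Their ratios in sh1089-2 were 1.71 (1.44 to 2.02) and 2.48 (1.62 to 3.88). Over all genes 4.89% were called higher in sh1089-2. Of 12 listed blood-cell genes 9 were analysed. They summed to 3.48, 3.14 and 4.44 FPKM, led by CD14 with 2.10, 1.60 and 1.87 FPKM, CD68 and GP1BA, and PTPRC had 2, 0 and 1 reads.

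KRT8, KRT18 and VIM (vimentin) had the highest mean FPKM of all genes in the lists. KRT18 had 1244 FPKM in sh1089-1, 1203 FPKM in sh1089-2 and 739 FPKM in shNC, KRT8 889, 893 and 619 FPKM, and KRT19 441, 441 and 290 FPKM. KRT18, KRT19 and SOX9 were called higher and KRT7 lower with both hairpins, of 6 epithelial genes that passed the filter, where 3.08% of all genes were higher and 2.79% lower with both. SOX9 had 31.9, 31.5 and 19.4 FPKM, and KRT7 5.75, 3.89 and 13.2 FPKM. KRT8 and KRT18 have many processed pseudogenes that could share reads with them. EPCAM had 1 read in each library and CDH1 had 0, 6 and 3 reads. CLDN7, an epithelial claudin, had 2.78 FPKM in sh1089-1, 3.02 FPKM in sh1089-2 and 4.95 FPKM in shNC, and was called lower in sh1089-1 and not in sh1089-2. Its plain ratios were close, at 0.561 and 0.611, and its log2(FPKM + 1) difference of −0.56 in sh1089-2 fell just short of the cut. EPCAM, CDH1 and CLDN7 were named after their values were seen.

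In the mesenchymal list, VIM had 1171 FPKM in sh1089-1, 1445 FPKM in sh1089-2 and 922 FPKM in shNC, and COL3A1 6.44, 8.39 and 8.04 FPKM. THY1, which fibroblasts and activated endothelium carry, was the gene of that list called higher with both hairpins, at 12.2 and 11.9 FPKM, against 6.85 FPKM in shNC. That was 1 of 8 genes that passed the filter, where 3.08% of all genes were higher with both. In sh1089-2 and not in sh1089-1, VIM was called higher (ratio 1.57, 1.55 to 1.59) and LUM lower (0.413, 0.236 to 0.693). Over all genes 4.89% were called higher and 5.63% lower in sh1089-2. ENG is also known from mesenchymal cells. The summed FPKM of the mesenchymal list was 1203, 1481 and 955 in sh1089-1, sh1089-2 and shNC, and that of the epithelial list 2614, 2576 and 1685. The mesenchymal sum is nearly all VIM: without it the other 16 genes summed to 32.3, 36.2 and 32.2 FPKM, and the median difference of the 8 genes that passed the filter was −0.18 in sh1089-1 and 0.03 in sh1089-2. The epithelial sum is likewise mostly KRT18, KRT8 and KRT19, and 6 of the 12 epithelial genes lay below 1 FPKM in every library. Over the 6 that passed the filter, the epithelial median was 0.56 in sh1089-1 and 0.57 in sh1089-2, and its part in the ENG difference was not tested.

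**Figure D3:**
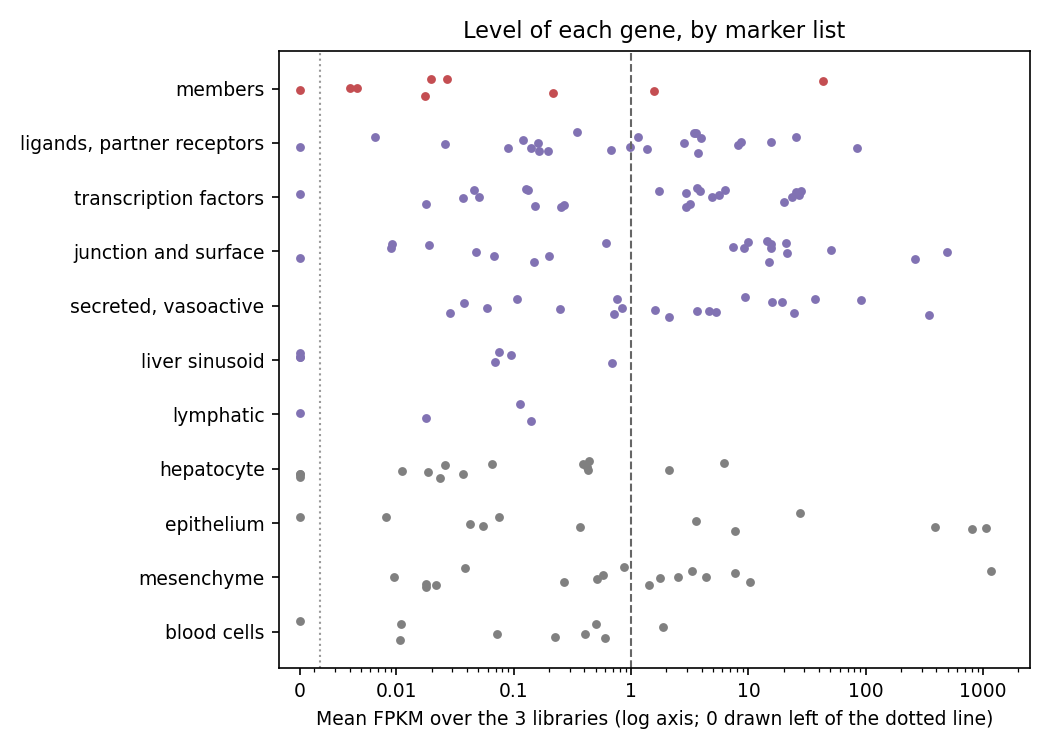
Mean FPKM over the 3 libraries of each analysed gene, on a log axis, by marker list, with 1 point per gene, genes at 0 left of the dotted line and a dashed line at 1 FPKM. Of the 9 endothelial lineage genes at the top 2 lie above 1 FPKM, while all sinusoidal and lymphatic genes lie below it and KRT8, KRT18 and VIM lie farthest right.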

How the data were processed

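RNA sequencing of 3 SK-Hep-1 lines was read from a deposited table. Stranded libraries were made from Trizol-extracted RNA after enrichment of mRNA, per the labels' protocols. GRCh38, StringTie and FastQC are named in the submitters' processing notes. For the aligner, the annotation release and whether strand was used in counting, no source used here gives an answer. The values are FPKM as deposited by the authors, 1 library per group. Symbols were found for 22375 of 22464 identifiers, and 22444 are in GENCODE 29, which gave coordinates, types and lengths.

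Library totals and reads were recovered from the steps of low FPKM values. A whole length giving whole reads in all 3 libraries was found for 99.6% of 19204 genes with a value above 0. Where several fitted, the length nearest to GENCODE 29 was taken. The calculation was tested on simulated data. Reads gave 95% Clopper-Pearson intervals of ratios and the floor of 3 reads, which cover counting error only; no count test was run. Differences are of log2(FPKM + 1), called at 1.5-fold among genes with a mean of at least 1 FPKM.

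The genes and lists were chosen with earlier results of these data known. Named were the 9 analysed genes, their ligands and partner receptors, the 3 highest genes of each other list and those called in the same direction with both hairpins. Others were chosen after their values were seen. A gene that this rule would name is not reported here. With 1 library per group, differences cannot be set against replicate spread. Alternatives were another pseudocount, filter, scaling, threshold and fold. Python 3.11.15, pandas 2.3.3, numpy 2.4.6 and scipy 1.17.1 were used.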

Additional observations from a re-analysis of the deposited data

How the results depend on the processing

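No paired analysis was possible because each group is 1 library. Of 53 alternatives tried, 43 left a count within 1.5 times its value or a difference within its counting interval, 10 moved it further and 0 reversed it. Some of the 43 could not have moved. With neither ENG nor ROBO4 called at 1.5-fold, a 2-fold cut or a stricter filter can only leave that count at 0. The tally is therefore no measure of how stable those counts are. At a threshold of 2 FPKM, 1 of the 9 genes (ENG) remained at that level in all 3 libraries, in place of 2. The count of wider endothelial genes called fell to 3 in sh1089-1 at a mean of at least 5 FPKM and to 3 at 2-fold, where it was 6, and to 5 and 3 in sh1089-2, where it was 8. These settings test fewer genes or ask for a larger fold. With a pseudocount of 1 the 7 genes below 1 FPKM lie too low to be called, so that count tests ENG and ROBO4 alone, and neither was called under any setting tried. A pseudocount of 0.1 with no filter was therefore added after seeing the data. It called 1 of the 9 genes in each comparison: TIE1, lower in sh1089-1 against shNC, TEK, lower in sh1089-2 against shNC (0 against 3 reads), and TIE1, higher in sh1089-2 against sh1089-1. It called 25.3%, 25.2% and 19.2% of all 22464 genes in those comparisons, and 19 and 29 of the 96 wider genes in sh1089-1 and sh1089-2. The log2 difference of ENG was 0.37 to 0.41 in sh1089-1 and 0.19 to 0.26 in sh1089-2 over the scalings and pseudocounts. Depth limits the 7 genes below 1 FPKM, where a difference was not detectable except for TIE1 in sh1089-1 by its counting interval.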

Other observations

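The pericyte gene RGS5, a regulator of G protein signalling, stood at 0.966 FPKM in sh1089-1 and 1.39 FPKM in sh1089-2, against 0.240 FPKM in shNC, on 61, 77 and 17 reads. Its ratios to shNC were 4.03 (95% counting interval 2.32 to 7.36) and 5.80 (3.40 to 10.5), but its mean lay below the filter of 1 FPKM. STAB1, the highest sinusoidal marker, had ratios of 2.68 (1.85 to 3.96) and 1.97 (1.31 to 2.99). NOTCH4, a receptor of arterial endothelium, had 2, 12 and 1 reads in sh1089-1, sh1089-2 and shNC. MMRN2, an endothelial matrix protein gene, went the other way, with 3, 0 and 14 reads. These genes were chosen after their values were seen, and each group is 1 library.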
